A study of Mus musculus with 23 samples.

Results

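The 10 genes described here handle iron inside the cell, move it across membranes or break down heme, and they were taken by name from the 35825 genes of the deposited table: Fth1, Ftl1, Hmox1, Slc40a1, Tfrc, Slc11a1, Slc11a2, Ncoa4, Cp and Gpx4. All 10 were above 0 in every library and all 10 passed the filter on low values. They were measured by RNA-seq in microglia sorted from mouse retina, in 23 libraries that fall into 6 groups. Every mouse carried the Cx3Cr1-GFP allele, in which GFP reports the fractalkine receptor gene of microglia and macrophages, so the groups labelled WT are WT for Spp1 and still carry the reporter. The WT groups were naive (4 libraries), after intraocular pressure (IOP) elevation by microbeads in the anterior chamber (WT IOP, 4 libraries, 4 weeks) and after optic nerve crush (WT ONC, 3 libraries, day 7). The groups labelled Spp1KO/Cx3Cr1-GFP were naive (KO naive), after IOP elevation (KO IOP) and after ONC (KO ONC), with 4 libraries each and the same intervals. Naive stands here for the label control in both genotypes. The study's microbead methods give control mice a saline injection, so whether these eyes were untouched is not settled. The study describes the knockout as global and describes retinas of several mice being pooled for sort-based work, but counts its expression samples in mice. Whether a library is 1 mouse or a pool is therefore not settled, and the p-values below measure the spread between these libraries. Ages were not given in the sources used here.

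Iron enters most cells bound to transferrin, is carried out of the endosome as ferrous iron, and is then used, stored in the ferritin shell or exported through ferroportin. Macrophages and microglia also take up iron as heme from engulfed material, and heme oxygenase opens the heme ring to free it. Translation of ferritin and ferroportin and the stability of the transferrin receptor message are set by a hairpin, the iron-responsive element, to which iron regulatory proteins bind when iron is scarce. That control acts on ferritin mostly at translation, so an RNA level does not give the protein level.

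The hairpins are shown here because iron regulatory proteins act on messages through them. A search of the annotated GRCm38 transcripts for the element (a bulged C, 5 pairing bases, the loop CAGTGN and the 5 complementary bases) found it in 4 of the 10 members. The loop is in capitals below, and each line gives 27 bases of the mRNA strand. The first 3 lie in the 5′ UTR of Fth1 (chr19:9982733-9982759, plus strand), Ftl1 (chr7:45459780-45459806, minus strand) and Slc40a1 (chr1:45925466-45925492, minus strand).
Fth1: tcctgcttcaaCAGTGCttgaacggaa
Ftl1: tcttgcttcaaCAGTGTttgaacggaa
Slc40a1: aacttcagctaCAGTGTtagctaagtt
Tfrc carried 4 copies in its 3′ UTR, at chr16:32631220-32631246, chr16:32631599-32631625, chr16:32631664-32631690 and chr16:32631711-32631737 on the plus strand.
Tfrc element 1: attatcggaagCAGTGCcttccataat
Tfrc element 2: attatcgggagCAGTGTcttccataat
Tfrc element 3: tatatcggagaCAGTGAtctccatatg
Tfrc element 4: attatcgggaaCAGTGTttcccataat
The same search found a match in 31 of 20899 genes with a 5′ UTR (0.148%) and in 129 of 21025 genes with a 3′ UTR (0.614%). The element lay in 4 of 5 annotated coding transcripts with that UTR for Fth1, 1 of 2 for Ftl1, 1 of 4 for Slc40a1 and 1 of 2 for Tfrc. A match is a run of letters, not a tested binding site, and the other 6 members had none by this search. The search allowed no mismatch or further bulge in the 5 pairs, so it does not show that those 6 lack such an element.

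The target of the knockout was checked first. Spp1 had 334 to 22906 normalized counts in the 11 WT libraries and 6.78 to 6811 in the 12 libraries labelled KO. The KO ONC libraries held 4750, 6811, 15.0 and 6226, so 3 of them exceeded every WT naive and every WT IOP library, and Spp1 RNA does not check the label there. In naive retinas it does so only in part, since KO naive replicate 1 (350) exceeded WT naive replicate 3 (334). KO is therefore used below as the label of a library. Other retinal cells were present in every library: the summed rod photoreceptor markers (12 of 12 above 0) made up 0.517 to 3.70% of all normalized counts and the summed microglial markers (10 of 10 above 0) 1.12 to 3.36%. In bulk RNA, fewer cells of a type and less RNA per cell cannot be told apart. KO naive replicate 3 stood apart from its group, with 1.18% rod markers against 3.14 to 3.70% in the other 3 and 3.20% microglial markers against 1.12 to 1.51%. WT IOP replicates 1 and 4 held 0.820 and 0.888% lens markers against 0.115 and 0.171% in replicates 2 and 3. The 4 KO IOP libraries differed from all others in Cx3cr1 itself, at 952 to 1233 normalized counts against 9417 to 67878. They also had 0 to 3.05 normalized counts of the Y-linked gene Ddx3y against 28.1 to 1713 in KO naive and 633 to 2274 in WT IOP. Sex, Cx3cr1 level and group therefore cannot be told apart in any comparison that uses KO IOP. Ddx3y was uneven within WT ONC, at 1797, 9.21 and 3.51 in replicates 1, 2 and 3, and within WT naive, at 0 in replicate 3 and up to 2623. It stood at 1369 to 1717 in the 4 KO ONC libraries. The comparison of genotypes after ONC and the ONC interaction are therefore also uneven in this gene.

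Ferritin was the most abundant product of the set. Fth1 encodes the heavy chain, which oxidizes iron as it enters the shell, and Ftl1 the light chain, which supports mineral formation inside it. On the scale of normalized counts per kilobase of merged exons, the WT naive mean was 56935 for Ftl1 and 24330 for Fth1, followed by Gpx4 (3139), Slc11a1 (2517), Slc40a1 (751), Ncoa4 (716), Hmox1 (607), Tfrc (394), Cp (295) and Slc11a2 (196). Merged exons join all annotated transcripts of a gene (3469 bases for Fth1, 1340 for Ftl1), so this order depends on annotated length. In normalized counts without that division, the WT naive mean was higher for Fth1 (84400.5) than for Ftl1 (76292.9). Fth1 and Ftl1 together made up 0.349% to 1.52% of all normalized counts of a library.

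**Figure D1:**
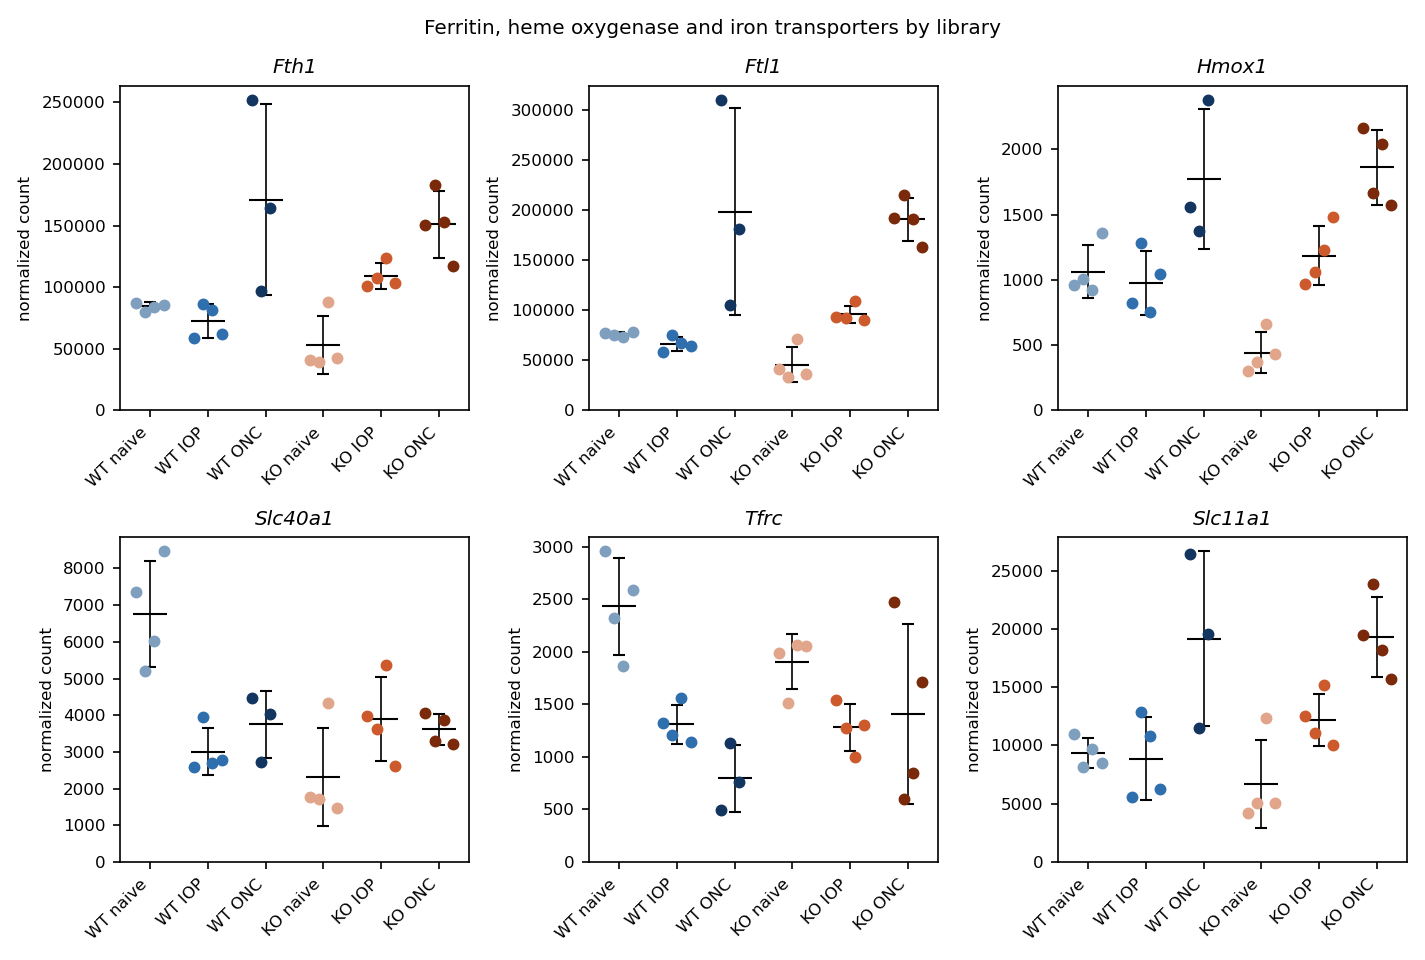
Normalized counts (y axis, from 0) of Fth1, Ftl1, Hmox1, Slc40a1, Tfrc and Slc11a1 in the 23 libraries by group (x axis); points are libraries, ordered by replicate number, and the black bar is the mean with the SD. Fth1, Ftl1 and Slc11a1 were highest after ONC, Slc40a1 was highest in WT naive, and KO naive replicate 3 sat above its group in Fth1, Slc40a1 and Slc11a1.

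For ONC in WT mice, 5 of the 10 members were called (limma, Benjamini-Hochberg adjusted p under 0.05 over 17102 genes and an absolute log2 fold change over 0.58), against 18.1% of all genes tested. Ferritin and Slc11a1 rose and Tfrc and Slc40a1 fell. The median log2 fold change was 0.59 over the members and -0.10 over all genes.

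Fth1 held 252087, 96819 and 164498 normalized counts in WT ONC and 87491, 80091, 84135 and 85885 in WT naive. All 3 WT ONC libraries lay above all 4 naive ones, replicate 2 only narrowly. Fth1 rose 1.88-fold (log2 fold change 0.91 ± 0.30 SE, limma adjusted p = 0.037). Ftl1 held 310112, 104944 and 180871 in WT ONC and 72912 to 78694 in the 4 WT naive libraries. Its rise was larger, 2.37-fold (log2 1.24 ± 0.29 SE, limma adjusted p = 0.0047), and the ratio of Ftl1 to Fth1 moved from 0.867–0.947 in WT naive to 1.08–1.23 in WT ONC, with no overlap.

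Tfrc, the receptor that brings transferrin-bound iron into the cell, moved the other way. It held 494, 1128 and 764 normalized counts in WT ONC against 2964, 2323, 1864 and 2587 in WT naive. The groups did not overlap, and Tfrc fell by 1.67 on the log2 scale (SE 0.35, limma adjusted p = 0.0019), to 0.314 of its naive level. Slc40a1, which encodes ferroportin, the iron exporter, held 4479, 2733 and 4038 in WT ONC against 7363, 5204, 6011 and 8470 in WT naive. It fell by 0.86 (SE 0.30, limma adjusted p = 0.049), just inside the threshold. Slc11a1, a pump that draws divalent metals out of the phagosome of macrophages, held 26430, 11453 and 19573 against 8153 to 10959, a 1.95-fold rise (log2 0.97 ± 0.33 SE, limma adjusted p = 0.048).

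Hmox1, the inducible heme oxygenase, held 1557, 1377 and 2382 normalized counts in WT ONC and 960, 1007, 923 and 1362 in WT naive. The groups were separated by a narrow margin and the difference missed the threshold (log2 0.71 ± 0.26 SE, limma adjusted p = 0.056). Slc11a2, the endosomal carrier of ferrous iron, held 1666 to 2676 against 1030 to 1514 (log2 0.72, limma adjusted p = 0.071). Ncoa4, the receptor that delivers ferritin to the lysosome, held 6757, 5701 and 8396 in WT ONC against 5957 to 7400 in WT naive, with 1 library above and 1 below that range and a log2 difference of 0.04. The calls depended on single libraries: 2 members were called without WT ONC replicate 1 or without replicate 3, and 7 without replicate 2, whose rod markers stood at 1.90% against 0.517 and 0.617% in the other 2. Leaving out a WT naive library gave 2 without replicate 1 or 3 and 3 without replicate 2 or 4. Under upper-quartile rescaling or quantile normalization 3 were called, Ftl1 higher and Slc40a1 and Tfrc lower, and with the WT naive and WT ONC libraries fitted alone Tfrc was the 1 call.

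After ONC in mice labelled KO, 6 of the 10 members rose against KO naive, where 23.6% of all genes tested were called. None fell. The median log2 fold change was 0.69 over the members and -0.12 over all genes.

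Fth1 held 150370, 182848, 153174 and 117080 normalized counts in KO ONC and 41264, 39422, 87994 and 42520 in KO naive, a 3.00-fold rise (log2 1.58 ± 0.28 SE, limma adjusted p = 0.00035). Ftl1 held 192778, 215443, 191561 and 163727 against 41778, 33442, 71155 and 36677, a 4.35-fold rise (limma adjusted p = 1.5e-05). Both chains were separated completely, including from KO naive replicate 3, the highest naive library. The ratio of Ftl1 to Fth1 was 1.18 to 1.40 in KO ONC against 0.809 to 1.01 in KO naive, as in the WT comparison without overlap.

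Hmox1 held 2167, 1669, 2044 and 1575 normalized counts in KO ONC against 305, 373, 665 and 430 in KO naive, a 4.34-fold rise (log2 2.12 ± 0.24 SE, limma adjusted p = 4.8e-06). Slc11a1 held 19513, 23817, 18225 and 15678 against 4226, 5096, 12358 and 5083, a 3.15-fold rise (limma adjusted p = 0.00062). The lowest KO ONC library was above the highest KO naive library for both genes. Slc40a1 rose 1.72-fold (limma adjusted p = 0.043) with overlapping groups, from 1757, 1716, 4327 and 1476 to 4061, 3295, 3880 and 3216, since KO naive replicate 3 exceeded all 4 KO ONC libraries. Ncoa4 rose 1.51-fold (log2 0.60 ± 0.20 SE, limma adjusted p = 0.029), again with KO naive replicate 3 (7093) inside the KO ONC range of 6522 to 8849. Over 8 single omissions the call was lost in 6 for Slc40a1 and in 5 for Ncoa4. Over 12 other settings it was kept in 5 for Slc40a1 and in 7 for Ncoa4. The calls of Fth1, Ftl1, Hmox1 and Slc11a1 were kept in all 8 omissions. Tfrc was uneven in KO ONC, at 2477, 604, 846 and 1714, against 1517 to 2064 in KO naive, and was not called (log2 -0.64, limma adjusted p = 0.15).

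Rod markers differed in the same comparison, at 0.728 to 1.06% in KO ONC and 1.18 to 3.70% in KO naive. With the mean log2 level of the rod markers as a covariate, 3 members were called: Fth1 (log2 0.74), Ftl1 (1.34) and Hmox1 (1.66). Slc40a1 then stood at -0.05, the opposite sign, and Slc40a1 and Ncoa4 also lost their call under either rescaling and with the compared groups alone, whereas Fth1, Ftl1, Hmox1 and Slc11a1 were called there. In WT mice the same covariate also left 3 called, Ftl1 (0.84), Slc40a1 (-1.29) and Tfrc (-1.48).

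**Figure D2:**
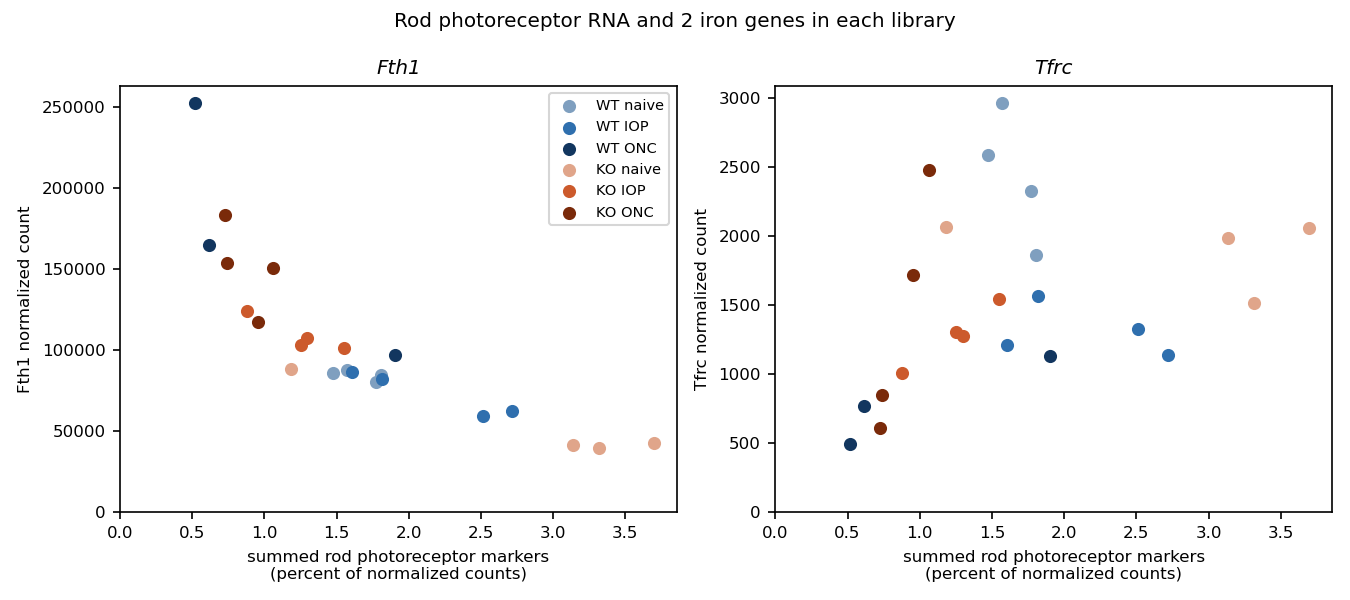
Normalized counts (y axis) of Fth1 and Tfrc against the summed rod photoreceptor markers as a percent of all normalized counts (x axis), 1 point per library, coloured by group. Fth1 was lowest in the 3 KO naive libraries with over 3% rod markers and highest in WT ONC replicate 1 with 0.517%, whereas for Tfrc the WT naive libraries lay above the other WT groups at a like rod share.

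IOP elevation in WT mice called 1 of the 10 members, where 1.56% of all genes tested were called. That gene was the exporter Slc40a1, at 2596, 3953, 2705 and 2765 normalized counts in WT IOP against 7363, 5204, 6011 and 8470 in WT naive. Every WT IOP library lay below every naive one, and Slc40a1 fell by 1.17 on the log2 scale (SE 0.28, limma adjusted p = 0.033), to 0.445 of its naive level.

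Ferritin was not called after IOP elevation in WT mice. Fth1 held 58771, 86450, 81596 and 62082 normalized counts (log2 -0.24 against WT naive, limma adjusted p = 0.76) and Ftl1 58506, 75779, 67322 and 64007. The low values of both chains were in replicates 1 and 4, the libraries with the most lens and rod RNA. Tfrc held 1326, 1210, 1562 and 1137 against 1864 to 2964, without overlap, and missed the threshold (log2 -0.89 ± 0.32 SE, limma adjusted p = 0.20). Cp, the ferroxidase that loads exported iron onto transferrin and is made by retinal glia, held 6486, 5151, 3547 and 8966 against 1884 to 3737 (log2 1.06, limma adjusted p = 0.19). Gpx4, the selenoenzyme that reduces lipid peroxides and so opposes ferroptosis, held 11981 and 13030 in replicates 1 and 4 but 5853 and 5556 in replicates 2 and 3, against 5107 to 5938 in WT naive (limma adjusted p = 0.26). Without WT IOP replicates 1 and 4, a choice made after these values were seen, the Gpx4 difference was 0.08 and Slc40a1 stood at -1.02 with an adjusted p of 0.40. No member was called without WT IOP replicate 1, 3 or 4 or without WT naive replicate 1, 3 or 4, with Slc40a1 between -1.31 and -1.05 over all single omissions.

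**Figure D3:**
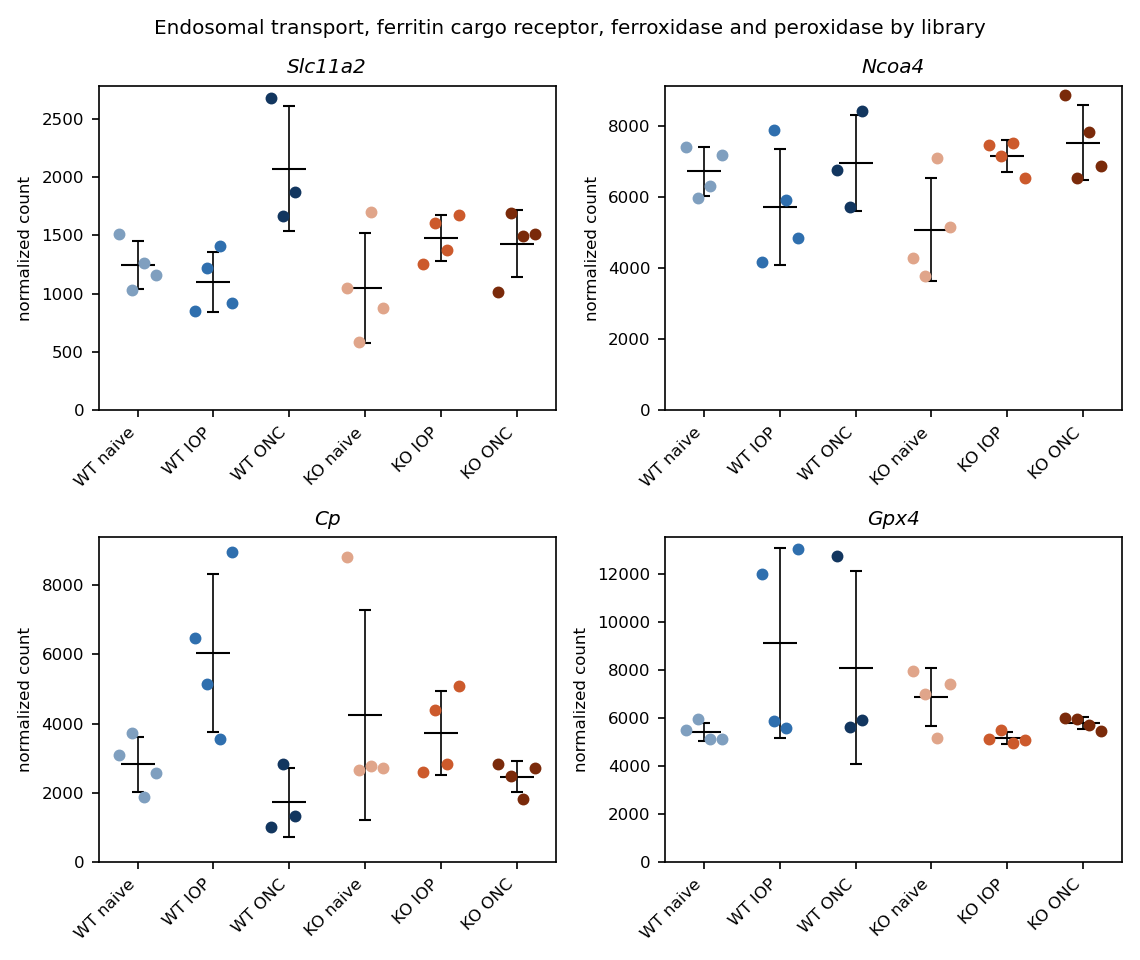
Normalized counts (y axis, from 0) of Slc11a2, Ncoa4, Cp and Gpx4 in the 23 libraries by group (x axis); points are libraries, ordered by replicate number, and the black bar is the mean with the SD. Gpx4 was high in WT IOP replicates 1 and 4 and WT ONC replicate 1, and Cp was high in KO naive replicate 1.

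IOP elevation in mice labelled KO gave a different set of calls: 3 of 10 members rose and none fell, where 7.88% of all genes tested were called (1347 genes, but 3182 without KO naive replicate 3 and 92 to 925 without any other library). The 3 were both ferritin chains and Hmox1. Fth1 held 101109, 107380, 124064 and 103167 normalized counts in KO IOP against the KO naive values given above, a 2.19-fold rise (log2 1.13 ± 0.28 SE, limma adjusted p = 0.023). Ftl1 held 93464, 92556, 108907 and 90240, a 2.20-fold rise (limma adjusted p = 0.020). Hmox1 held 966, 1062, 1226 and 1484, a 2.75-fold rise (log2 1.46 ± 0.24 SE, limma adjusted p = 0.0045). The lowest KO IOP library exceeded the highest KO naive library for each of these genes.

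Slc11a1 (log2 0.99, limma adjusted p = 0.051) and Slc40a1 (0.84, adjusted p = 0.060) fell just short of the threshold, and Ncoa4 (0.53) and Slc11a2 (0.58) had an unadjusted p under 0.05 only. KO naive replicate 3 weighed on all of these: without it 7 members were called, namely Fth1, Ftl1, Hmox1, Slc40a1, Slc11a1, Slc11a2 and Ncoa4, with log2 fold changes of 0.71 to 1.67. Without KO naive replicate 1, 2 or 4, or without KO IOP replicate 3, only 1 member was called, and with the KO naive and KO IOP libraries fitted alone none was. Microglial markers stood at 2.49 to 3.21% in KO IOP against 1.12 to 1.51% in KO naive replicates 1, 2 and 4, and Muller glia and astrocyte markers at 1.30 to 1.84% against 0.911 to 1.19% in all 4, and their part was not tested. Rod markers stood at 0.880 to 1.55% in KO IOP, and with rod level as a covariate no member was called (7 of 17102 genes were, and 3 members had an unadjusted p under 0.05).

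**Figure D4:**
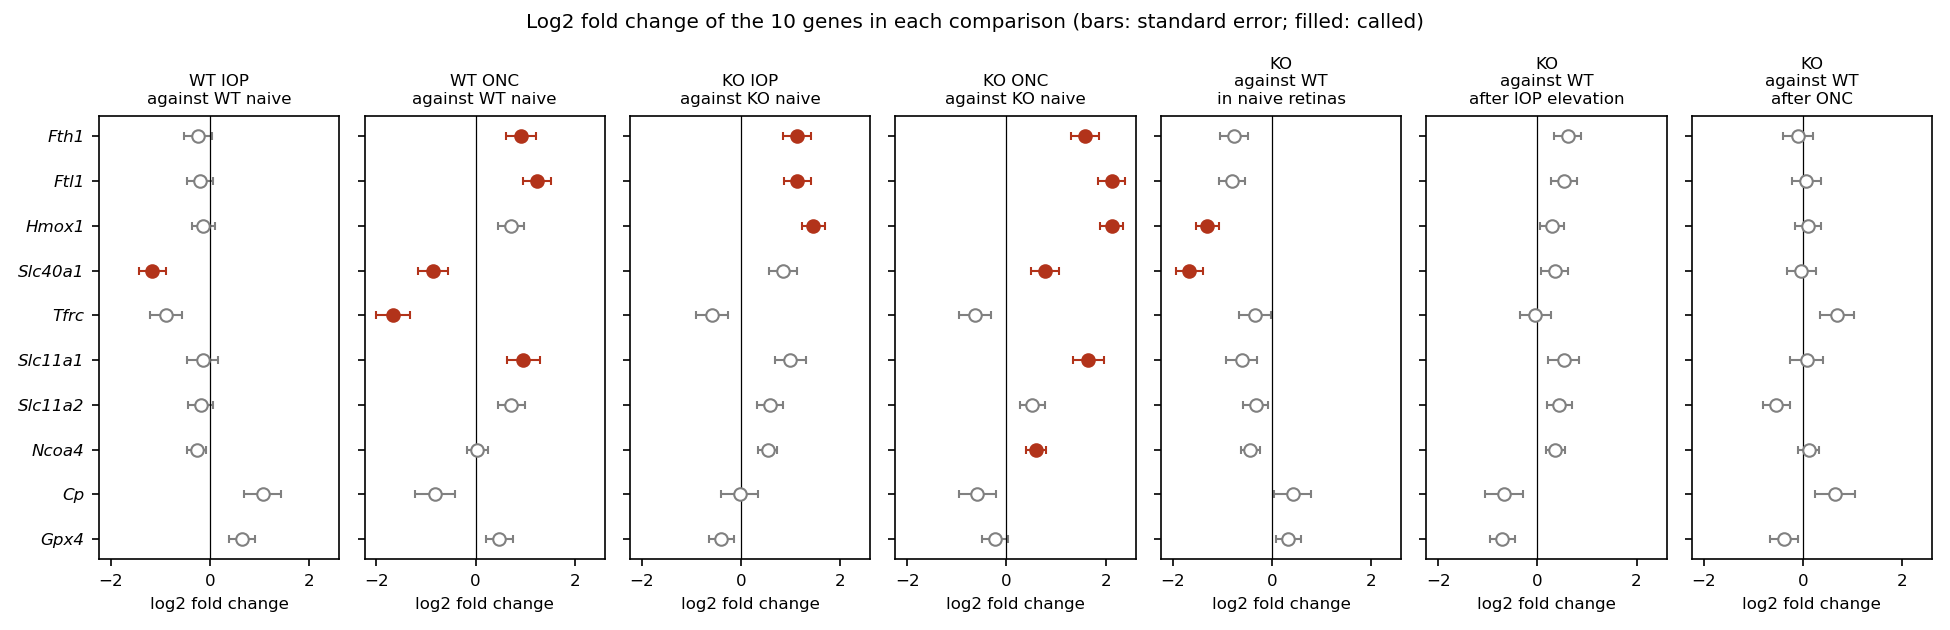
Log2 fold changes (x axis) of the 10 members (rows) in the 7 pairwise comparisons (panels), with the limma standard error as bars and called members filled. Ferritin, Hmox1 and Slc11a1 lay to the right of 0 after injury in KO mice and after ONC in WT mice, Slc40a1 lay to the left of 0 in WT mice after either injury, and no member was called between KO and WT after injury.

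The genotypes were compared directly in each condition. In naive retinas 2 of the 10 members were called, both lower in the libraries labelled KO, where 0.409% of all genes tested were called (70 genes, but 1623 without KO naive replicate 3 and 1 to 26 without any other library). Slc40a1 stood at 1757, 1716, 4327 and 1476 normalized counts in KO naive against 5204 to 8470 in WT naive (log2 fold change -1.66 ± 0.28 SE, limma adjusted p = 0.014), and Hmox1 at 305 to 665 against 923 to 1362 (-1.30 ± 0.24 SE, limma adjusted p = 0.016). Both genes were separated completely between the groups. Fth1 (log2 -0.76, limma adjusted p = 0.17) and Ftl1 (-0.80, 0.13) were lower in KO naive without passing the test, and Fth1 of KO naive replicate 3 (87994) exceeded all 4 WT naive libraries. Rod markers stood at 1.48 to 1.81% in WT naive and above 3% in KO naive replicates 1, 2 and 4. Microglial markers stood at 2.64 to 3.36% in WT naive and 1.12 to 1.51% in those 3 KO libraries, and pigment epithelium markers at 0.00354 to 0.00601% and 0.0856 to 0.245%. KO naive replicate 3 was near the WT naive libraries in both, at 3.20 and 0.00508%. Slc40a1 and Hmox1 were also called with rod level as a covariate (-1.26 and -1.08), and the part of the microglial and pigment epithelium shares was not tested. Leaving out KO naive replicate 3 gave 6 called members, all lower, leaving out KO naive replicate 1 gave 1, and leaving out KO naive replicate 2 or 4 or WT naive replicate 1, 3 or 4 gave 0, as did a fit of the naive libraries alone. Quantile normalization called 4, with both ferritin chains added.

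After IOP elevation no member was called between the genotypes (limma, 2.11% of all genes tested were). An unadjusted p under 0.05 was reached by 2 of 10 members against 21.1% of all genes, and edgeR called 0 members and DESeq2 1. Fth1 was 1.52-fold higher in KO IOP and Ftl1 1.45-fold, each without overlap between the groups (limma adjusted p = 0.21 and 0.25). Gpx4 stood at 4971 to 5500 in KO IOP and 5556 to 13030 in WT IOP (log2 -0.71, limma adjusted p = 0.13), and the difference was -0.15 without WT IOP replicates 1 and 4. After ONC no member was called either (limma, 0.0877% of all genes tested), and none had an unadjusted p under 0.05, against 9.36% of all genes. Neither edgeR nor DESeq2 called a member, though both gave 1 member at an unadjusted p under 0.05. The log2 difference after ONC was -0.09 for Fth1 (95% interval from limma, -0.71 to 0.53), 0.07 for Ftl1 (-0.52 to 0.67), 0.10 for Hmox1 (-0.43 to 0.63) and -0.03 for Slc40a1 (-0.65 to 0.59). The interval for Tfrc reached 1.41, with KO ONC at 604 to 2477 and WT ONC at 494 to 1128 normalized counts.

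Whether the response to IOP elevation differed with genotype was tested by an interaction term. It was called for 4 of 10 members, where 8.75% of all genes tested were called, and all 4 were positive: Slc40a1 (log2 2.01 ± 0.39 SE, limma adjusted p = 0.0066), Hmox1 (1.60 ± 0.34, 0.0092), Ftl1 (1.34 ± 0.38, 0.031) and Fth1 (1.37 ± 0.39, 0.033). Slc40a1 had the largest term: its log2 difference from naive was -1.17 in WT and 0.84 in KO. The naive groups enter this term with opposite sign, and the KO naive and WT naive levels of Slc40a1 and Hmox1 already differed. The KO IOP libraries held 0 to 3.05 normalized counts of Ddx3y against 633 to 2274 in WT IOP, and less Cx3cr1 than any other library. Sex and Cx3cr1 level therefore cannot be told apart from genotype in this term. No member was called with rod level as a covariate (0 of 10, 4 at an unadjusted p under 0.05) or without WT IOP replicates 1 and 4. Counts over single omissions ran from 2 to 8: 8 without KO naive replicate 3, 7 without WT IOP replicate 2, and 2 without WT naive replicate 1, 3 or 4, WT IOP replicate 1 or 4, KO naive replicate 1, 2 or 4 or KO IOP replicate 3.

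The interaction with ONC called no member (limma, 0.0702% of all genes tested). An unadjusted p under 0.05 was reached by 4 of 10 members against 12.4% of all genes, and edgeR called 0 members and DESeq2 2. Slc40a1 (log2 1.64) and Hmox1 (1.40) both had an adjusted p of 0.11 and were called without KO naive replicate 3, at 1.98 and 1.62.

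No exact permutation test of a member between 2 groups passed a threshold of 0.05 after adjustment over the 70 tests made. The smallest adjusted p was 0.095, and the smallest raw p that 4 libraries against 4, or 3 against 4, allow is 0.029. With that limit, no test could pass unless most of the 70 came near it. This outcome therefore says little about single members.

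The 10 genes varied together in part. Over the 23 libraries, the Pearson correlation on the log2 scale was 0.97 between Fth1 and Ftl1, 0.97 between Fth1 and Slc11a1, 0.86 between Fth1 and Hmox1, 0.52 between Fth1 and Slc40a1, -0.58 between Fth1 and Tfrc and -0.63 between Fth1 and Cp. The gene whose pattern was most like that of Fth1 was Aif1 (r = 0.99), the calcium-binding protein IBA1 of microglia and macrophages, followed by Sh3bgrl3 and Fcer1g. Ftl1 was nearest to Ftl1-ps1, Fuca1 and Glmp, Slc11a1 to Cd68, Rhog and Trem2, and Hmox1 to Tyrobp, Cd86 and Casp1. Slc40a1 was nearest to Abcc3, P2ry12 and Liph, of which P2ry12 is a receptor of homeostatic microglia. Tfrc was nearest to AI593442, Csgalnact1 and Grm2. The points share their libraries and their varying share of rod RNA, so these correlations are descriptions.

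Set against Aif1 in the same library, the members parted. Aif1 was chosen for this after its values were seen, as the gene nearest to Fth1, so the narrow range of Fth1 to Aif1 follows in part from that choice and no ratio was tested. Fth1 itself ranged from 39422 to 252087, whereas its ratio to Aif1 ranged from 7.48 to 18.7, and in WT ONC it was 7.48, 10.3 and 10.6 against 11.6 to 13.7 in WT naive. For Ftl1 the ratio was 9.20 to 11.7 in WT ONC and 10.3 to 12.3 in WT naive, and for Hmox1 it was 0.0462 to 0.154 and 0.128 to 0.212. Aif1 itself stood at 6161 to 7515 normalized counts in WT naive and 9410 to 33698 in WT ONC. In the libraries labelled KO, Fth1 to Aif1 was 9.41 to 11.1 after ONC and 12.8 to 18.7 in naive retinas. None of these ratios was higher after ONC without overlap, whereas Fth1 and Ftl1 themselves rose in both genotypes.

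Tfrc to Aif1 was 0.303 to 0.403 in WT naive, 0.178 to 0.391 in WT IOP and 0.0147 to 0.120 in WT ONC, and in the libraries labelled KO it was 0.301 to 0.899, 0.101 to 0.180 and 0.0341 to 0.183. Slc40a1 to Aif1 was 0.784 to 1.32 in WT naive, 0.408 to 0.766 in WT IOP and 0.133 to 0.290 in WT ONC. In the libraries labelled KO it was 0.547 to 0.796, 0.316 to 0.541 and 0.186 to 0.299. On this scale Slc40a1 was lower after either injury than in the naive group of the same genotype, without overlap, in WT and in KO alike, whereas in normalized counts its direction differed between the genotypes. Tfrc to Aif1 was likewise lower without overlap in WT ONC, KO IOP and KO ONC than in the naive libraries of the same genotype. A ratio within a library shows unequal change and does not say which gene moved.

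**Figure D5:**
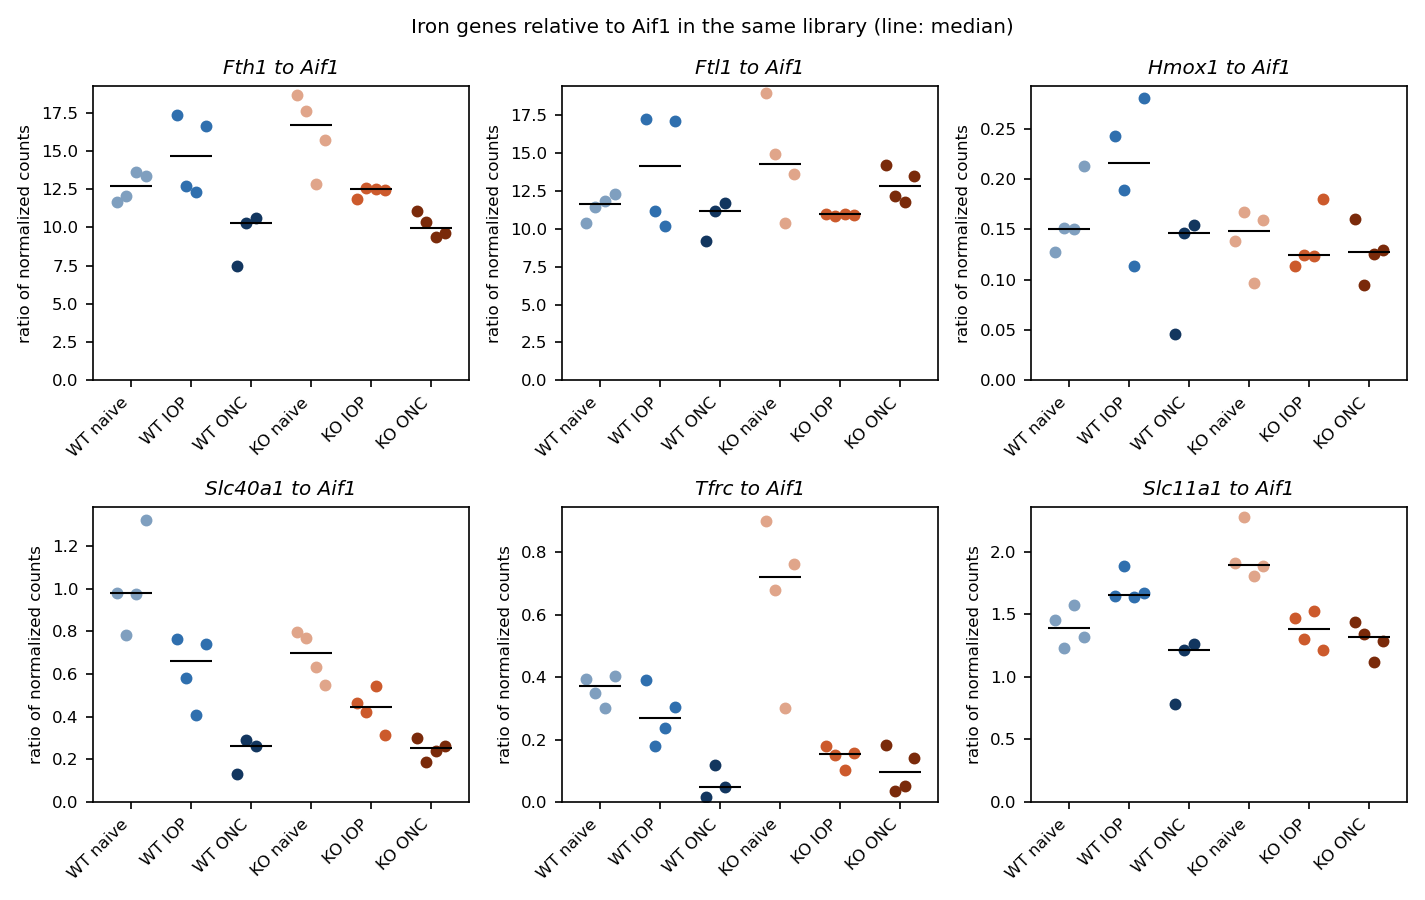
Ratio of normalized counts to Aif1 (y axis, from 0) for Fth1, Ftl1, Hmox1, Slc40a1, Tfrc and Slc11a1 in the 23 libraries by group (x axis); points are libraries and lines are medians. Slc40a1 and Tfrc stepped down to ONC in both genotypes, whereas Ftl1 ranged from 9.20 to 18.9 with its highest values in KO naive replicate 1 and WT IOP replicates 1 and 4.

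The pair of ferritin promoters is shown because both chains rose together in 3 comparisons. The 100 bases before the annotated start were taken from RefSeq (GRCm38.p6), with CCAAT, the box bound by NF-Y, searched on either strand and printed in capitals as ATTGG where it lies on the other strand. Fth1 has 2 annotated starts there. The window of the downstream start is chr19:9982546-9982645, plus strand, and holds 1 match, and the other window, chr19:9980500-9980599, holds 0. The Ftl1 window is chr7:45459887-45459986, minus strand, and holds 2.
Fth1 promoter: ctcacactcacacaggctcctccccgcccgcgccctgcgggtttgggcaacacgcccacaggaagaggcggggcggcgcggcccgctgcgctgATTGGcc
Ftl1 promoter: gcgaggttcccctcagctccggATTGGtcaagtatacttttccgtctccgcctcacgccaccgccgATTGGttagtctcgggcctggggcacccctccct
A CCAAT in either direction was present in 18.9% of 32851 windows of this length. Of the other members in the table, Gpx4, which was called in no comparison, had 2 matches in 1 window and 1 in another, and Slc11a1, Cp, Ncoa4 and Tfrc had 0. No measurement here bears on binding.

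Ftl1 has processed copies elsewhere in the genome, and the authors' counting could split reads among them. Ftl1-ps1 carried 685 to 7728 normalized counts, 1.98 to 2.75% of Ftl1 in the same library. Whether reads that match both genes were dropped is not given in the sources used here. This share therefore sets no limit on the reads that Ftl1 lost. The other annotated copies of ferritin and Gpx4 (Ftl1-ps2, Ftl2-ps, Fth-ps2, Gpx4-ps2) had 0 to 66.9. Cp overlaps Hps3 on the opposite strand (1798 to 4348 normalized counts), and without stated strand use in the counting their reads cannot be told apart where they overlap. Ftl1 likewise overlaps Gm22133 and Gm10252, and Slc11a2 overlaps Gm5475, which had at most 11.3.

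Of a wider set of 83 iron and heme genes, 77 were tested, in lists of uptake, export, regulation, heme handling, heme synthesis, iron-sulfur cluster assembly, Nrf2 and Bach1 targets and ferroptosis defence. After ONC 18 were called in WT (11 higher, 7 lower, 23.4% against 18.1% of all genes) and 19 in KO (15 higher, 4 lower, 24.7% against 23.6%), so the shares were near the background. Over single omissions the WT count ran from 5 (without WT ONC replicate 1) to 25 (without WT ONC replicate 2) and the KO count from 13 to 25, and with rod level as a covariate the KO count was 2. The genes named from these lists are the 6 called with the lowest adjusted p in each comparison, and those beyond them are named as such. Sat1, which catabolizes spermidine and can promote lipid peroxidation, led both, at 2.49-fold in WT (limma adjusted p = 0.0016) and 4.64-fold in KO (4.6e-06). Alas1, the first enzyme of heme synthesis, rose 1.92-fold in WT and 2.41-fold in KO. Of the heme uptake and breakdown list, 2 of 12 fell in WT ONC (Cd163 and Flvcr2, 16.7% called against 18.1% of all genes). In KO ONC 3 rose (Hmox2, Lrp1 and Blvrb, 25% against 23.6%), so both shares were near the background. Flvcr2, Lrp1 and Blvrb were named after their values were seen. Cd163, the haptoglobin-hemoglobin receptor of border macrophages, fell by 5.82 on the log2 scale in WT ONC, from a mean of 1863 to 168, and the summed border macrophage and monocyte markers, which include Cd163, went from 0.0691–0.149% to 0.0109–0.0260%. Cd163 held 0 to 433 normalized counts in WT ONC and 1017 to 2338 in WT naive. With a library at 0, its log2 value depends on the 1 added before the log. Hmox2, the constitutive heme oxygenase, rose 2.14-fold in KO ONC (limma adjusted p = 0.00070).

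Of the uptake list, 4 of 16 were lower and 1 higher in WT ONC (31.2% called against 18.1%), with a median log2 of -0.35 against -0.10 over all genes, of which 1801 were lower and 1292 higher. Steap3, the endosomal ferrireductase (0.325 of naive), and Tfr2, a second transferrin receptor (0.122), were among the 4. The other two, Trf and Scara5, the higher gene Mcoln1, and Steap4, Prdx1 and Me1 in KO and Cisd1 in WT in what follows were named after their values were seen. In KO ONC the uptake list had 2 lower, Steap2 (0.371 of naive) and Steap4 (0.0603), and none higher (12.5% called against 23.6% of all genes). Steap4 held 0 to 43.5 normalized counts in KO ONC and 8.72 to 196 in KO naive. Its fraction therefore depends on the 1 added before the log. Nfe2l2, which encodes Nrf2, a factor that drives Hmox1 and ferritin, rose 2.43-fold in KO ONC (limma adjusted p = 0.00086), and Prdx1 rose 2.13-fold in WT ONC and 2.07-fold in KO ONC. The third called gene of the Nrf2 and Bach1 list in KO ONC (27.3% called against 23.6%), Me1, the cytosolic malic enzyme, fell to 0.343 of naive (limma adjusted p = 0.012). In WT ONC the Nrf2 and Bach1 list had 2 of 11 called (18.2% against 18.1% of all genes), so that share was at the background. They were Prdx1 and Keap1, which rose 1.51-fold and was named after its value was seen. The ferroptosis list had 3 higher and 1 lower of 12 in WT ONC (33.3% called against 18.1%). In KO ONC it had 5 higher and 1 lower (50% against 23.6%). The lower gene was in both cases Cisd1, an iron-sulfur protein of the outer mitochondrial membrane.

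After IOP elevation 1 of the 77 was called in WT (1.30% against 1.56%) and 7 in KO (9.09% against 7.88%). The WT call was lost in 7 of 8 single omissions, and the KO count was 20 without KO naive replicate 3, 0 or 1 without any other KO naive library, 3 to 5 without a KO IOP library, and 0 with rod level as a covariate. The WT gene was Lcn2, a siderophore-binding protein, 35.8-fold higher with 504 to 3565 normalized counts against 10.2 to 138. In KO IOP, Gpx1 (2.76-fold), Sat1 (2.07-fold), Blvrb, a biliverdin reductase (1.93-fold), and Aco1, which encodes iron regulatory protein 1 (1.51-fold, named after its value was seen), rose, whereas Smad4, Me1 and Nqo1 fell. Between the genotypes, Sat1 was the 1 gene of the set called in naive retinas (0.466 of WT, 1.3% called against 0.409% of all genes). That count was 10 without KO naive replicate 3 and 0 without any other library of these groups. After IOP elevation 3 were called (3.9% against 2.11%), Aco1 higher (1.75-fold) and Lcn2 and Cybrd1 lower in KO. After ONC none of the 77 was called between the genotypes (limma, 7 at an unadjusted p under 0.05, against 9.36% of all genes). The IOP interaction was called for 10 of the 77 (13% against 8.75%), 4 positive and 6 negative, with Gpx1 (log2 2.19), Me1 (-2.74), Sat1 (1.48), Aco1 (1.05), Smad4 (-1.86) and Alad (-1.57) at the lowest adjusted p. The ONC interaction was called for none (11 at an unadjusted p under 0.05, against 12.4% of all genes). The IOP interaction count ran from 4 without WT IOP replicate 1 or 4 to 24 without KO naive replicate 3.

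Red blood cell RNA was read beside Hmox1, since hemoglobin is a source of heme. The summed red cell markers stood at 0.0303 to 0.0589% of normalized counts in WT naive, with 5 of the 7 markers above 0 in all 4 libraries, and at 0.000236 to 0.00764% in WT ONC, where Slc4a1 was at 0 in all 3. Hmox1 did not pass the test in that comparison (log2 0.71). In KO naive, where Hmox1 was lower than in WT naive, the hemoglobin gene Hbb-bs stood at 1059 to 1874 normalized counts against 2083 to 3577. In KO ONC, where Hmox1 was higher than in KO naive, Hbb-bs stood at 114 to 1079. Within KO IOP, Hbb-bs was at 4144 in replicate 1 and 2.02 to 6.03 in the other 3, and Hmox1 at 966 and 1062 to 1484. The part of red cells in the Hmox1 values was not tested.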

How the data were processed

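RNA-seq of sorted retinal microglia was measured in 23 libraries. The deposited table holds the authors' normalized counts per gene (a signal in read counts scaled by a size factor per library, not raw counts). The study names salmon and the submitters' processing notes name STAR, both with GRCm38 and DESeq2. The annotation release and the use of strand in counting are not given in the sources used here. In every library the values were whole multiples of what 1 read is worth (within 0.01 read), which gave 22180480 to 30296094 reads on genes per library, and 3 reads correspond to 2.41 to 4.03 normalized counts. Such limits cover counting error only.

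Tests used limma 3.58.1 (R 4.3.3, intensity trend) on log2(normalized count + 1), with 1 mean for each of the 6 groups, for genes with at least 10 normalized counts in at least 3 libraries (17102 genes). Fold changes are on that scale. Calls required a log2 fold change beyond 0.58 in either direction together with a p-value below 0.05 after Benjamini-Hochberg adjustment over all genes, which are the study's limits. The fit was tested on simulated data. edgeR 4.0.16 and DESeq2 1.42.0 on the recovered reads, other pseudocounts, filters and scalings, a rod marker covariate, a replicate block and the omission of each library were alternatives.

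Groups came from the labels. Replicates of 1 group had Pearson correlations of 0.953 to 0.984, and no pair held identical values. The labels share replicate numbers across groups without saying that a number marks an animal, litter or day. The members and all gene lists were chosen with earlier results of these data known. The 10 members are named throughout. Of the wider lists, the 6 called genes with the lowest adjusted p are eligible in a comparison, and any further gene is marked as named after its value was seen. For each member called at least once, the 3 genes with the highest Pearson correlation over the 23 libraries are named, except for Ncoa4, for which they are not reported here. Gene IDs were matched to the GRCm38 annotation with their version for 34732 of 35825 genes, and hairpins were searched in its transcripts. Hfe2 and Fdx1l were used for Hjv and Fdx2, and Ahsp was not found.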

Additional observations from a re-analysis of the deposited data

Results flagged for a closer look

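Among 50 combinations of a member and a group of 4 libraries, 6 had a highest or lowest library whose gap to the next exceeded Dixon's 95% critical value, and chance flags about 1 in 20. KO naive replicate 3 was the high library for Fth1 (87994 normalized counts), Slc40a1 (4327.2) and Slc11a1 (12358). The same library had the lowest rod and highest microglial markers of its group. The other 3 were Slc40a1 in WT IOP replicate 2 (3952.5, high), Tfrc in KO naive replicate 2 (1516.7, low) and Cp in KO naive replicate 1 (8808.3, high). No member was recounted or left out on this ground in the values of the report.

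The response to IOP elevation differed between the libraries labelled WT and KO, by the interaction term, for Fth1 (log2 1.37), Ftl1 (1.34), Hmox1 (1.60) and Slc40a1 (2.01), with limma adjusted p of 0.033, 0.031, 0.0092 and 0.0066. The part of rod RNA in these differences was not tested beyond the covariate fit, in which none of them was called. KO IOP also stood apart in Ddx3y and Cx3cr1, so sex and Cx3cr1 level cannot be told apart from genotype here.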

How the results depend on the processing

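The counts of called members by limma were 1 (WT IOP against WT naive), 5 (WT ONC against WT naive), 3 (KO IOP against KO naive), 6 (KO ONC against KO naive), 2, 0 and 0 (KO against WT in naive retinas, after IOP elevation and after ONC), 4 (interaction with IOP elevation) and 0 (interaction with ONC). With the compared groups fitted alone they became 2 in WT IOP and 1 in WT ONC, and 0 in KO IOP and 0 between naive genotypes. For WT ONC the count was 2 with no filter on low values and 3 under upper-quartile rescaling. Quantile normalization gave 3 for WT ONC, 4 between naive genotypes and 1 for the ONC interaction. With the rod marker covariate the counts were 3 for WT ONC, 0 for KO IOP, 3 for KO ONC, 0 for the IOP interaction and 1 for the ONC interaction, and Slc40a1 in KO ONC against KO naive reversed to -0.054 (limma adjusted p = 0.95). DESeq2 on the recovered reads gave 1 between genotypes after IOP elevation and 2 for the ONC interaction, and edgeR moved no count by over 1.5 times. Without WT IOP replicates 1 and 4, chosen after seeing the data, the counts were 0 for WT IOP and 0 for the IOP interaction. The cause of these changes was not tested.

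Leaving out 1 library at a time gave 0 to 1 called members in WT mice after IOP elevation and 2 to 7 after ONC. In KO mice the ranges were 1 to 7 after IOP elevation and 4 to 7 after ONC. They were 0 to 6 between naive genotypes, 0 to 0 between genotypes after IOP elevation and after ONC, 2 to 8 for the IOP interaction and 0 to 2 for the ONC interaction. For the ONC interaction the 2 came without KO naive replicate 3.

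The replicate block gave 3 members for WT ONC against 5, and moved no other count by over 1.5 times. Replicate numbers did not pair the samples: deviations from the group means had a median correlation of 0.0046 over 55 same-numbered pairs, of which 10 exceeded 0.1, and -0.0039 over 165 other pairs, and 7 of 23 libraries correlated best with their own number.

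Counts over all genes also moved with the tool. Between naive genotypes limma called 70 genes, edgeR 26 and DESeq2 536, and the limma count for KO IOP was 1347 against 559 by edgeR. DESeq2 called 580 genes against 267 by limma for WT IOP, and 940 against 360 between genotypes after IOP elevation. After ONC, the genotype difference gave 15 by limma, 2 by edgeR and 100 by DESeq2, and the ONC interaction 12, 3 and 226. Upper-quartile rescaling moved the median log2 fold change of all genes in WT ONC from -0.10 to -0.21. The precision of every value is limited by groups of 3 or 4 libraries rather than by depth, since all 10 members were well above the 3-read limit in every library.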
